A study of Homo sapiens with 9 samples.

Results

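The comparison set the 3 BE(2)C libraries against the 3 SH-SY5Y libraries of the series, 6 of its 9 libraries, chosen by cell line label. The other 3 came from Kelly. All are human neuroblastoma cell lines. BE(2)C is a clonal subline of SK-N-BE(2) and SH-SY5Y a clonal subline of SK-N-SH, so each line stands for 1 clone. The labels give MYCN as amplified in BE(2)C and Kelly and as not amplified in SH-SY5Y. All cells were untreated, were grown in DMEM/F12:MEM with IFS as the serum supplement and were harvested before confluence. PolyA RNA was isolated with Trizol and sequenced. The labels do not say whether the libraries of a line came from separate cultures, and p-values then speak only of the scatter among the libraries at hand, possibly technical. With 1 line on each side, MYCN status and everything else that sets the lines apart cannot be told apart.

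Neuroblastoma arises from the sympathoadrenal lineage of the neural crest, whose cells become sympathetic neurons or the chromaffin cells of the adrenal medulla. Its cell lines keep parts of that programme: synthesis of catecholamines, storage of peptides in dense-core granules, neuronal cytoskeleton and ion channels. Lines also differ in HOX code, adhesion molecules, growth factor signalling and metabolism, and these families are described here in that order.

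All levels are scaled TPM, transcripts per 1000000 over gene entries alone after division by a trimmed-mean factor for each library. Differences are BE(2)C minus SH-SY5Y on the log2(scaled TPM + 1) scale, given with their standard error, and come from limma fitted to all genes. A gene is called higher or lower where its Benjamini-Hochberg adjusted p was under 0.05, two-sided. Without counts in the deposited values, sequencing depth cannot be read from them, and no counting interval is given. Spike-in RNA took 83.7% to 86.7% of the deposited total in these 6 libraries and was left out. Mitochondrially encoded genes took 24.5%, 35.4% and 31.9% of the gene total in the BE(2)C libraries and 17.2% to 18.1% in those of SH-SY5Y. The label check held: MYCN stood at 4809, 6551 and 6814 scaled TPM in BE(2)C against 26.5, 28.4 and 26.9 in SH-SY5Y, and LIN28B at 85.2, 98.2 and 98.8 against 9.15, 9.58 and 10.2. All 12 neuroblastoma markers reached 1 scaled TPM in each line. Of 6 leukocyte markers 3, among them PTPRC and CD3E, were listed at 0 in both lines and the other 3 had a mean of 1 or more in each; their sum ran from 10.28 to 18.97 in BE(2)C and from 8.38 to 9.77 in SH-SY5Y, without overlap. Of 5 epithelial markers the keratins KRT5, KRT14 and KRT20 were listed at 0 in both lines. A mean of 1 or more was reached by 1 marker in SH-SY5Y and by 0 in BE(2)C. The 5 summed to 0.475 to 0.912 in BE(2)C and 0.593 to 1.945 in SH-SY5Y. Summed fibroblast markers ran from 52.5 to 94.6 in BE(2)C and from 63.0 to 70.3 in SH-SY5Y, summed Schwann cell and glial markers from 4.997 to 10.7 and from 2.41 to 3.48, and summed endothelial markers stayed at or under 0.371 in both. Some genes that every cell uses had implausibly low values, among them HSPA8, RPS9 and LDHA. Of 19 genes taken as expressed in every cell, 19 had a mean of 1 or more in BE(2)C and 17 in SH-SY5Y. HSPA8, RPS9 and LDHA were themselves called between the lines. Levels of different genes are therefore uncertain, and the difference of such a gene between lines may be so too.

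Of 13078 genes tested, 7763 were called, which is 59.4% of those tested. BE(2)C was higher for 3744 of them (28.6% of tested genes) and lower for 4019 (30.7%), and for 7611 of the 7763 the libraries of the lines did not overlap. At least 2-fold differences were called for 1567 genes higher and 2174 lower. The median log2 difference over all tested genes was -0.038. The balance of calls moved with scaling: 48.2% of calls were on the higher side, but 23.6% when libraries were scaled to their totals alone (below, library totals only), with an all-gene median of -0.44. Taking mitochondrial genes out of that total gave 36.3% and a median of -0.229. Values as deposited gave 18.2% and -0.443, and quantile normalization 51% and 0.027. Gene families are therefore described against the 28.6% and 30.7% above, and the counts with another scaling or without a library stand beside a family where they move its counts or its balance.

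With so many genes called, most families differed in part, and a few leaned far to a single side. Intermediate filaments, the respiratory chain, the HOX genes and the protocadherins leaned towards BE(2)C. Cancer-testis antigens, neuronal RNA-binding proteins, imprinted genes, collagens and zinc finger genes leaned towards SH-SY5Y. The shares in the plot of gene lists are of tested members. A gene passed the filter on low values if it reached 1 scaled TPM in at least 3 of the 9 libraries, so a member silent in all but BE(2)C or SH-SY5Y could pass only by being high there, and the shares are descriptions.

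**Figure D1:**
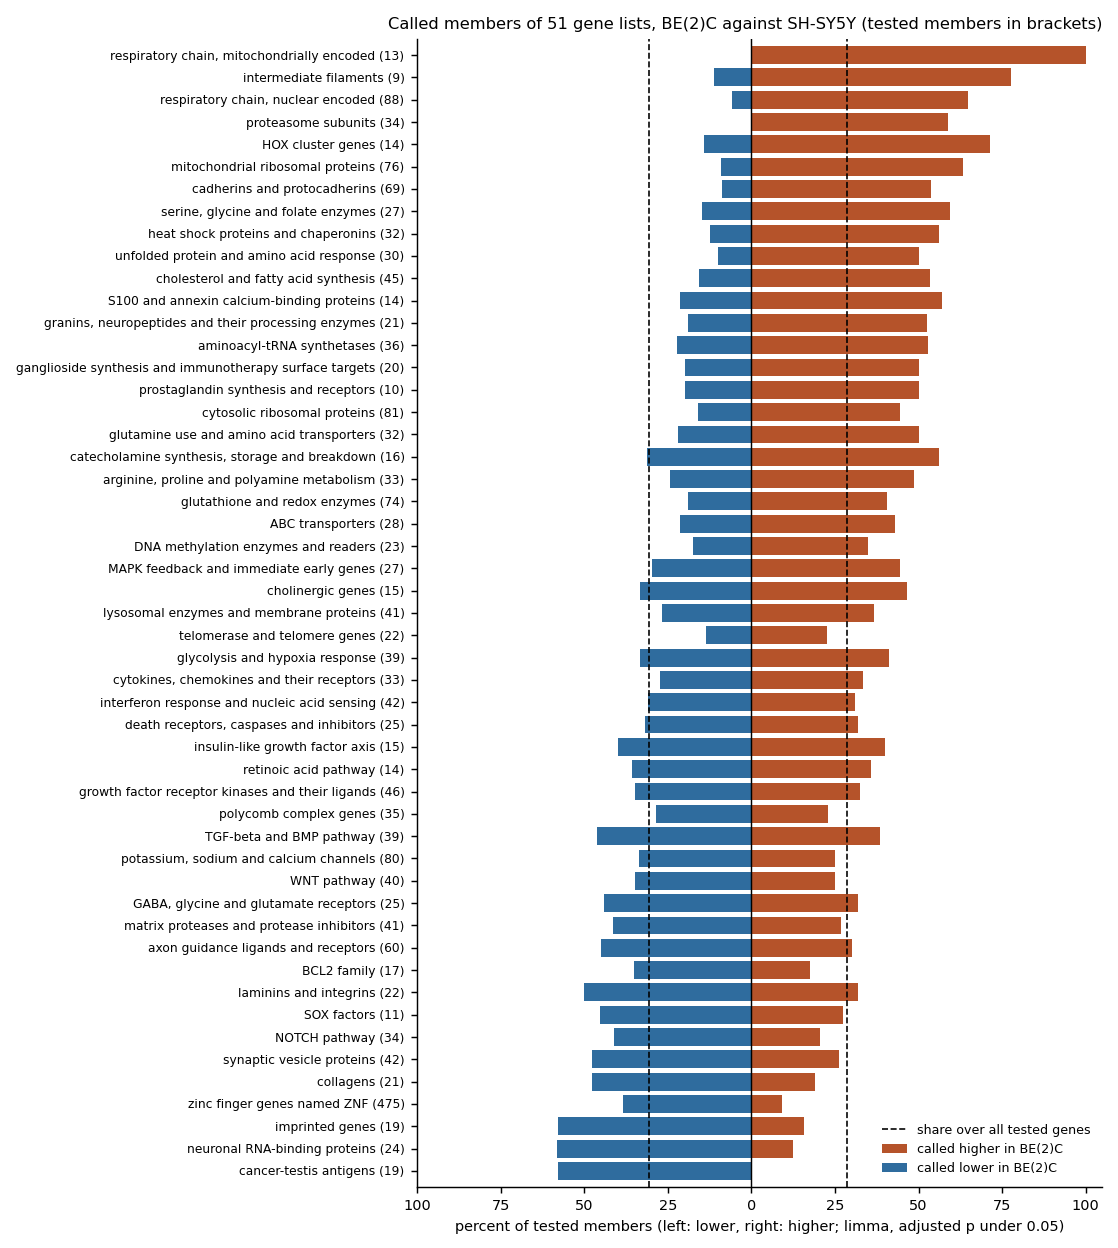
Percent of tested members called higher (right) and lower (left) in BE(2)C for each of 51 gene lists, with tested members in brackets and dashed lines at the shares over all tested genes, 28.6% and 30.7%. Mitochondrially encoded genes stand at 100% higher and cancer-testis antigens at 0% higher; with library totals only, families near the middle move to the left, and cytosolic ribosomal proteins turn from 36 higher and 13 lower to 10 higher and 35 lower.

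Intermediate filament genes, the cytoskeletal fibres of nerve processes, were mostly higher. Of 10 intermediate filament genes, 9 were tested, 7 were higher in BE(2)C and 1 was lower (without BE(2)C replicate 1, 7 higher and 2 lower). PRPH encodes peripherin, the intermediate filament of peripheral and sympathetic neurons, and stood at 1355, 1037 and 805 scaled TPM in BE(2)C against 1.23, 1.67 and 1.44 in SH-SY5Y. The lines did not overlap and lay far apart. NEFM, the medium neurofilament chain, stood at 531, 518 and 504 scaled TPM in BE(2)C against 149, 145 and 149 in SH-SY5Y, with no overlap (log2 difference 1.80 ± 0.14, adjusted p = 5.4e-06, limma). VIM, the filament of mesenchymal and precursor cells, was also higher, at 223, 189.7 and 161 scaled TPM against 57.6, 57.2 and 62.3 (log2 difference 1.67 ± 0.12). Synemin (SYNM) and the heavy neurofilament chain (NEFH) differed by 1.36 ± 0.13 and 1.08 ± 0.10 on the log2 scale. NES was the exception. It encodes nestin, the filament of neural progenitors, and read 46.95, 45.3 and 46.6 scaled TPM in BE(2)C against 184, 182 and 183 in SH-SY5Y, lower in every BE(2)C library (log2 difference -1.96 ± 0.05, adjusted p = 1.3e-08, limma). INA, the internexin chain, did not pass the test (246 ± 48.6 scaled TPM in BE(2)C against 272 ± 3.83 in SH-SY5Y, mean ± SD, n = 3).

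Genes of catecholamine handling split by step. Of 17 genes 16 were tested, 9 higher and 5 lower in BE(2)C. The genes named here for making and loading dopamine were higher, while of the cofactor genes SPR was lower (log2 difference -0.86 ± 0.22) and GCH1 and PCBD1 did not pass (0.00 ± 0.47 and 0.08 ± 0.10). TH, the first and rate-limiting enzyme, read 35.7, 45.01 and 39.2 scaled TPM in BE(2)C and 0, 0.227 and 0.346 in SH-SY5Y. DDC, which makes dopamine from DOPA, read 11.5 ± 1.502 against 4.31 ± 0.454 scaled TPM (mean ± SD, n = 3), and QDPR, which recycles the tetrahydrobiopterin cofactor, 116 ± 1.95 against 35.2 ± 3.40. The vesicular monoamine transporters load amines into granules. SLC18A2 stood at 6.798, 7.01 and 5.25 scaled TPM in BE(2)C against 0, 0.226 and 0.133 in SH-SY5Y, and SLC18A1 stood at 24.7, 31.2 and 30.6 against 12.4, 10.7 and 7.70. Neither transporter overlapped between lines. CYB561, the granule membrane cytochrome that supplies electrons, and SLC6A2, the noradrenaline transporter of the cell surface, were higher by 1.12 ± 0.15 and 0.99 ± 0.08 on the log2 scale.

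The later steps ran the other way. DBH, which turns dopamine into noradrenaline, stood at 404, 573 and 576 scaled TPM in BE(2)C against 991, 983 and 947 in SH-SY5Y (log2 difference -0.93 ± 0.16, adjusted p = 0.00079, limma). PNMT, which makes adrenaline, read 1.25, 0.627 and 1.78 against 11.5, 7.90 and 8.17 scaled TPM. Both were lower in every BE(2)C library. Monoamine oxidases break the amines down and were lower. MAOA stood at 2.95, 2.74 and 2.07 scaled TPM in BE(2)C against 61.4, 58.6 and 62.0 in SH-SY5Y (log2 difference -4.11 ± 0.11, adjusted p = 1.3e-08, limma). MAOB was listed at 0 in all 3 BE(2)C libraries and at 37.6, 35.3 and 37.9 scaled TPM in SH-SY5Y. In Kelly MAOA stood at 178, 156 and 163 scaled TPM and SLC18A2 at 122, 85.0 and 73.5; the comparisons of Kelly share these BE(2)C and SH-SY5Y libraries.

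Acetylcholine genes included a block of neighbouring receptor genes that were all higher. Of 28 genes in the table, 15 were tested, 7 higher and 5 lower in BE(2)C (with library totals only, 6 higher and 6 lower). The ganglionic nicotinic receptor is built from the α3, β4 and α5 subunits, whose genes CHRNA5, CHRNA3 and CHRNB4 lie next to each other on chromosome 15 between positions 78565520 and 78727754 (GRCh38). CHRNA3 stood at 726, 705 and 669 scaled TPM in BE(2)C against 131, 130.1 and 122 in SH-SY5Y (log2 difference 2.45 ± 0.06, adjusted p = 7.2e-09, limma). CHRNA5 and CHRNB4 differed by 1.27 ± 0.22 and 1.09 ± 0.08 on the log2 scale, and in none of the 3 did the lines overlap. The annotated ends of CHRNA5 and CHRNA3 overlap, so these may share reads. BCHE, a cholinesterase, differed most of this list, at 140.1, 134.2 and 120.0 scaled TPM in BE(2)C and a mean of 0.0117 ± 0.0203 in SH-SY5Y (log2 difference 7.03 ± 0.12). SLC18A3, the vesicular acetylcholine transporter, was higher too, at 103 ± 3.74 scaled TPM against 45.8 ± 3.62. The muscle-type subunit gene CHRNB1 and the muscarinic receptor gene CHRM2 were lower. CHRM2 stood at 4.97, 2.43 and 3.96 scaled TPM in BE(2)C against 21.7, 22.6 and 20.4 in SH-SY5Y, and CHRNB1 at 3.27, 5.56 and 7.496 against 26.9, 30.3 and 31.8, both without overlap. CHRNA7, the homomeric receptor subunit, did not pass (25.1 ± 1.48 scaled TPM against 21.4 ± 1.51).

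Dense-core granules hold neuropeptides in a protein matrix. Of 30 genes 21 were tested, 11 higher and 4 lower (with library totals only, 10 higher and 6 lower). The cyclic AMP response element (CRE) is the binding site of CREB, which many neuropeptide genes carry close to their start. Letters TGACGTCA, which read the same on both strands, occurred in the 250 bases before the start in 5 of 23 members that matched the RefSeq promoter table (21.7%: CARTPT, CHGA, PCSK1, SST and VGF). They occurred in 1.77% of all 27305 promoters in that table and in 2.93% of those of tested genes. A match is a description and not a binding site. The 250 bases before the start of CHGA (chr14:92922900-92923149, plus strand), SST (chr3:187670395-187670644, minus strand) and VGF (chr7:101165570-101165819, minus strand), and of the catecholamine transporter gene SLC18A2 (chr10:117240864-117241113, plus strand), are shown because they hold this motif, in capitals, in genes that differed in opposite directions. They are read 5′ to 3′ on the strand of the gene from RefSeq, GRCh38.p14.
CHGA: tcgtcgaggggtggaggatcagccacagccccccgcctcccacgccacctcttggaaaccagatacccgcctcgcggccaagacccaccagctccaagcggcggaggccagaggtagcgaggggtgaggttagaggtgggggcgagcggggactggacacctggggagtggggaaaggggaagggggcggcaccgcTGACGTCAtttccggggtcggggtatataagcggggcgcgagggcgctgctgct
SST: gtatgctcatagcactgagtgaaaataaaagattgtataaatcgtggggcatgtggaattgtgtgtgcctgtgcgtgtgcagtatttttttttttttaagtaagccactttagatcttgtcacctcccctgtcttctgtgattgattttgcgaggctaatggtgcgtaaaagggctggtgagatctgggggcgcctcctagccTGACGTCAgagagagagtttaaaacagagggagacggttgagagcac
SLC18A2: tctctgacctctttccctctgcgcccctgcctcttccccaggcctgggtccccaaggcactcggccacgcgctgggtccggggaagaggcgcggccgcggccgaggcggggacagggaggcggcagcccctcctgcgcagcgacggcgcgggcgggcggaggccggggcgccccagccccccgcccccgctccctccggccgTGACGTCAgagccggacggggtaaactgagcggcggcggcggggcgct
VGF: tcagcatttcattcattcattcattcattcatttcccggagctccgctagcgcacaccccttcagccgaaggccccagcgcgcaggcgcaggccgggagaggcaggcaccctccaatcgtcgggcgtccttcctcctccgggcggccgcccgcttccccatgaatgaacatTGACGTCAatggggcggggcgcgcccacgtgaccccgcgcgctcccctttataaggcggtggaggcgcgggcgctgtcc

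CHGA and CHGB, the chromogranins that fill the granule core, were both higher. CHGA stood at 1946, 2648 and 2453 scaled TPM in BE(2)C against 124, 121 and 124 in SH-SY5Y, with no overlap (log2 difference 4.24 ± 0.12, adjusted p = 1.8e-08, limma). CHGB stood at 665, 838 and 817 scaled TPM against 114, 111 and 112, and SCG2, secretogranin II, at 686, 652 and 656 against 116, 113 and 124. Among the peptides, ADCYAP1 (PACAP, which acts on chromaffin cells) was listed at 0 in all 3 SH-SY5Y libraries and stood at 104, 82.5 and 69.8 scaled TPM in BE(2)C. SST (somatostatin) was also listed at 0 in SH-SY5Y and reached 5.53, 5.08 and 6.20 scaled TPM in BE(2)C. VIP, the related vasoactive peptide, stood at 124, 202 and 203 scaled TPM in BE(2)C against 34.4, 28.1 and 32.9 in SH-SY5Y. CRH (corticotropin-releasing hormone) and GAL (galanin) were higher by 4.66 ± 0.66 and 1.62 ± 0.09 on the log2 scale.

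VGF, a granin-like precursor of several peptides, was lower where CHGA was higher, and both promoters hold the motif. It stood at 290.0, 399 and 409 scaled TPM in BE(2)C against 1408, 1451 and 1414 in SH-SY5Y, lower in each BE(2)C library (log2 difference -1.97 ± 0.12, adjusted p = 8.4e-07, limma). NMU, neuromedin U, was at 0.583, 1.99 and 1.17 scaled TPM in BE(2)C against 76.1, 73.5 and 84.8 in SH-SY5Y. CPE, the carboxypeptidase that trims peptide precursors, stood at 3.95, 7.14 and 6.99 scaled TPM in BE(2)C against 100.1, 97.8 and 93.6 in SH-SY5Y (log2 difference -3.84 ± 0.18). NPY, abundant in sympathetic neurons, did not pass the test, at 71.7, 229 and 209 scaled TPM in BE(2)C against 171, 161 and 178 in SH-SY5Y, where the ranges overlapped. PCSK1N, a convertase inhibitor, read 275 ± 33.5 against 271 ± 22.1 scaled TPM and did not pass either.

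**Figure D2:**
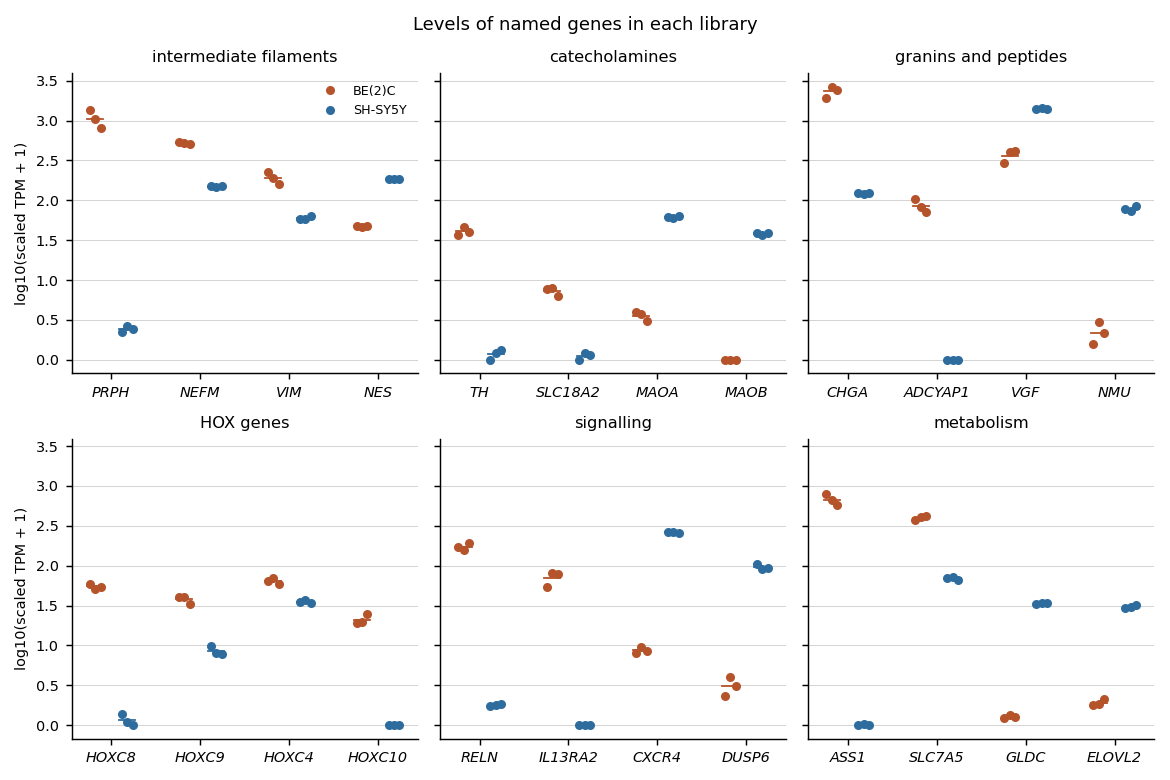
Level of 24 named genes in each library, as log10(scaled TPM + 1), with 1 point per library and a line at the mean of the 3 libraries of BE(2)C and of SH-SY5Y. PRPH, TH, CHGA, HOXC8, RELN and SLC7A5 lie higher in BE(2)C and NES, MAOA, VGF, CXCR4, DUSP6 and GLDC lower, with no overlap in any of these 12.

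Synaptic vesicle genes had more members lower (20) than higher (11) among 42 tested of 53 in the table. SV2C, a glycoprotein of the vesicle membrane, differed most of these members: it stood at 0.0826, 0.0949 and 0.0868 scaled TPM in BE(2)C against 76.9, 78.8 and 79.0 in SH-SY5Y and was lower (log2 difference -6.19 ± 0.14). CPLX2, a complexin that clamps the fusion machinery, stood at 469, 486 and 500.3 scaled TPM in BE(2)C against 69.3, 55.3 and 55.3 in SH-SY5Y, and SYT1, the calcium sensor of fast release, at 214, 199.5 and 202 against 34.2, 39.8 and 43.1. Both were higher in every BE(2)C library, by 3.003 ± 0.09 and 2.37 ± 0.10 on the log2 scale. RIMS2, an active zone scaffold, was higher by 2.30 ± 0.13. SYT3, a calcium sensor of another class, stood at 1.92, 2.22 and 3.47 scaled TPM in BE(2)C against 22.7, 31.95 and 21.3 in SH-SY5Y and was lower, with a log2 difference of -2.90 ± 0.25.

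Transmitter receptor genes differed subunit by subunit. Of 52 GABA, glycine and glutamate receptor genes 25 were tested, 8 higher and 11 lower. Leaving out BE(2)C replicate 1 or 2 gave 5 higher and 10 lower, and leaving out replicate 3 gave 5 higher and 11 lower. Glutamate receptors of the AMPA type are tetramers of subunits from 4 genes. Their subunit gene GRIA4 stood at 33.9, 43.3 and 47.3 scaled TPM in BE(2)C against 3.82, 3.76 and 4.16 in SH-SY5Y, while GRIA3 was listed at 0 in all 3 BE(2)C libraries and at 31.4, 26.8 and 31.2 in SH-SY5Y. Kainate receptor subunits split likewise. GRIK3 stood at 40.1, 44.7 and 46.0 scaled TPM against 4.56, 3.24 and 3.99 and GRIK2 was higher by 1.76 ± 0.18 on the log2 scale. GRIK5, a high-affinity subunit, stood at 8.32, 8.92 and 11.5 scaled TPM in BE(2)C against 78.1, 78.3 and 78.3 in SH-SY5Y and was lower (log2 difference -2.91 ± 0.13). None of these overlapped between lines.

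Ion channel genes set the excitability of neurons. Of 139 channel genes 80 were tested, 20 higher and 27 lower (with library totals only, 14 higher and 33 lower). The 53 tested potassium channel genes had 14 higher and 13 lower (with library totals only, 9 higher and 17 lower), while of 16 calcium channel genes 3 were higher and 10 lower, with a median log2 difference of -1.02. KCNQ1, a potassium channel of heart and epithelia, read 0.208 ± 0.184 scaled TPM in BE(2)C against 18.04 ± 1.22 in SH-SY5Y (mean ± SD, n = 3; log2 difference -3.99 ± 0.18, adjusted p = 1.5e-07, limma). KCNK1, a leak channel, was listed at 0 in BE(2)C and stood at 27.03, 27.2 and 27.5 in SH-SY5Y. CACNG7, an auxiliary subunit of the gamma family, stood at 3.31, 7.01 and 4.16 scaled TPM in BE(2)C against 106, 125 and 107 in SH-SY5Y, with no overlap.

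Axon guidance genes included a pair of receptors near 0 in SH-SY5Y and several members near 0 in BE(2)C. Of 72 genes 60 were tested, 18 higher and 27 lower. Neuropilins are the binding receptors of class 3 semaphorins and coreceptors of VEGF. NRP1 stood at 71.4, 52.1 and 50.97 scaled TPM in BE(2)C against 0.0851, 0.178 and 0.0986 in SH-SY5Y, and NRP2 at a mean of 21.2 ± 1.91 against 0.0202 ± 0.035. Both differed without overlap, by 5.71 ± 0.19 and 4.44 ± 0.17 on the log2 scale. Members lower in BE(2)C included NEO1, the netrin and RGM receptor neogenin, at 1.34, 0.775 and 1.23 scaled TPM against 53.2, 53.7 and 56.3, and NTNG2, a membrane-bound netrin, at 0.568 ± 0.282 against 33.99 ± 1.95. UNC5D, a netrin receptor, was listed at 0 in BE(2)C and at 19.5, 23.3 and 21.1 scaled TPM in SH-SY5Y. Semaphorins counted 6 higher and 9 lower of 17 tested, ephrins 3 and 5 of 8, and EPH receptors 0 and 4 of 9. RELN lies outside this list but guides migrating neurons as the secreted protein reelin. It stood at 170.4, 155 and 191 scaled TPM in BE(2)C against 0.754, 0.769 and 0.843 in SH-SY5Y (log2 difference 6.59 ± 0.16, adjusted p = 7.2e-09, limma), and at 0, 0.0692 and 0.16 in Kelly.

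Neuronal RNA-binding proteins leaned to SH-SY5Y. Of 25 genes 24 were tested, 3 higher and 14 lower in BE(2)C, and none was higher by 2-fold. With library totals only there were 0 higher and 16 lower. Leaving out SH-SY5Y replicate 1 or 3 gave 2 higher and 9 lower, leaving out SH-SY5Y replicate 2 gave 1 higher and 10 lower and leaving out BE(2)C replicate 2 gave 1 higher and 14 lower. The ELAVL (Hu) proteins stabilise neuronal mRNAs. ELAVL4 (HuD) stood at 27.03, 25.7 and 26.5 scaled TPM in BE(2)C against 189, 189 and 201 in SH-SY5Y (log2 difference -2.82 ± 0.08, adjusted p = 1.4e-08, limma), ELAVL2 was lower by the log2 difference -1.10 ± 0.18 and ELAVL3 by -0.70 ± 0.07. CELF proteins regulate splicing. CELF5 stood at 0.0252, 0.565 and 0 scaled TPM in BE(2)C against 27.4, 42.9 and 33.5 in SH-SY5Y, and CELF3 at 39.2, 36.2 and 42.1 against 131, 137 and 132. MSI1, the progenitor protein Musashi, was lower too, at 21.2 ± 3.41 scaled TPM against 64.7 ± 3.77. RBFOX2 and PTBP2, splicing factors of neurons, did not pass, with log2 differences of -0.08 ± 0.05 and 0.15 ± 0.22.

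Positional identity differed in the HOXC cluster. HOX genes lie in 4 clusters and their combination records position along the body axis. Of 39 HOX genes 14 passed the filter: none of HOXA or HOXB, 7 of 9 in HOXC and 7 of 9 in HOXD. Together they had 10 higher and 2 lower, 7 higher and 1 lower without BE(2)C replicate 3 and 8 higher and 1 lower without SH-SY5Y replicate 1. All 7 tested HOXC genes were higher in BE(2)C, with a median log2 difference of 1.64, while the HOXD genes had 3 higher and 2 lower (with library totals only, 1 higher and 2 lower). HOXC8 stood at 58.2, 50.2 and 53.6 scaled TPM in BE(2)C against 0.396, 0.107 and 0 in SH-SY5Y. HOXC10 was listed at 0 in all 3 SH-SY5Y libraries and stood at 18.1, 18.5 and 23.5 in BE(2)C. HOXC9 stood at 39.9, 39.0 and 31.96 scaled TPM in BE(2)C against 8.72, 6.93 and 6.802 in SH-SY5Y, and HOXC6 at 44.6, 44.96 and 41.1 against 14.9, 12.3 and 14.4. None of the 4 overlapped between lines. The more anterior HOXC4 was present in both, at 63.5 ± 5.80 scaled TPM and 34.3 ± 1.57 (log2 difference 0.87 ± 0.10), a difference no longer called on the values as deposited. Genes of the cluster overlap, so the split between HOXC4, HOXC5 and HOXC6 is uncertain. In Kelly HOXC8 read 28.3, 23.4 and 30.9 and HOXC9 30.3, 27.1 and 36.7 scaled TPM.

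Other transcription factors stood out among the largest differences of all genes. NKX6-1 and LHX9, homeodomain factors of neural patterning, were listed at 0 in SH-SY5Y and in BE(2)C NKX6-1 stood at 51.2, 59.8 and 55.8 scaled TPM and LHX9 at 38.8, 65.8 and 61.01. NR2F2 (COUP-TFII), a nuclear receptor of mesenchymal and neural development, stood at 61.4, 40.5 and 75.8 scaled TPM in BE(2)C against 0.0948, 0.153 and 0.0711 in SH-SY5Y. EBF3, a factor of neuronal differentiation, stood at 79.4, 59.99 and 59.6 against 0.399, 1.02 and 0.3. Neither overlapped, and the log2 differences were 5.72 ± 0.25 and 5.44 ± 0.24. NRIP1, a nuclear receptor corepressor, was listed at 0 in SH-SY5Y and stood at 42.9, 45.7 and 42.9 scaled TPM in BE(2)C.

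SOX factors differed member by member. Of 19 in the table, 11 were tested, 3 higher and 5 lower. Leaving out any 1 SH-SY5Y library left 9 tested with 3 higher and 3 lower, and the median moved from -0.62 to between 0.09 and 0.12. SOX9, a neural crest and glial factor, stood at 10.3, 10.4 and 15.5 scaled TPM in BE(2)C against 0.507, 0.103 and 0.286 in SH-SY5Y, and SOX18, known from endothelium, at 28.98, 25.1 and 30.5 with a mean of 0.0335 ± 0.0581 in SH-SY5Y. The SOXC factors act in young neurons and were all lower. SOX11 stood at 56.9, 67.8 and 67.99 scaled TPM in BE(2)C against 281, 285 and 287 in SH-SY5Y (log2 difference -2.14 ± 0.09, adjusted p = 1.2e-07, limma). SOX4 stood at 182 ± 4.76 against 374 ± 4.32, and SOX12 at 60.7 ± 3.82 against 103 ± 3.75. Endothelial markers summed to at most 0.371 scaled TPM in every library, and their part in the SOX18 level was not tested. The glial markers are given above, and their part in the SOX9 level was not tested.

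Developmental signalling pathways each held members on both sides. In the NOTCH pathway 34 of 40 genes were tested, 7 higher and 14 lower (with library totals only, 4 higher and 20 lower; without SH-SY5Y replicate 1 or 2, 7 higher and 9 lower). DLL3, an inhibitory ligand, stood at 114, 104.9 and 82.0 scaled TPM in BE(2)C against 15.8, 14.6 and 17.4 in SH-SY5Y, higher in each library. HES4, a target repressor, stood at 0.222, 0.96 and 0.31 against 32.7, 35.3 and 30.2, and DTX1, a modulator of the receptor, at 4.84 ± 0.998 against 39.3 ± 5.36, both lower. In the WNT pathway, of 40 tested of 67 genes 10 were higher and 14 lower (after quantile normalization, 13 higher and 13 lower). AXIN2, a feedback inhibitor that β-catenin induces, stood at 0.816, 0.616 and 0.775 scaled TPM in BE(2)C against 25.2, 22.9 and 19.1 in SH-SY5Y (log2 difference -3.75 ± 0.17, adjusted p = 1.7e-07, limma). SFRP1, a secreted inhibitor, was higher, at 139, 119 and 116 against 25.3, 24.7 and 23.5. The receptors ROR2 and ROR1, which bind WNT5A, moved apart: ROR2 was higher by 1.90 ± 0.18 on the log2 scale and ROR1 lower, with -1.69 ± 0.17.

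In the TGF-beta and BMP pathway 39 of 59 genes were tested, 15 higher and 18 lower (with library totals only, 7 higher and 19 lower, and on the values as deposited 4 higher and 14 lower). BMP7, a ligand of sympathoadrenal development, stood at 32.5, 41.6 and 41.3 scaled TPM in BE(2)C against 0.621, 1.11 and 0.841 in SH-SY5Y. Its receptor BMPR1B stood at 11.4, 9.36 and 10.2 against 1.12, 1.24 and 1.89, and the signal transducer SMAD1 at 19.6, 17.6 and 16.4 against 0.808, 8.71 and 4.81. All 3 were higher without overlap, by 4.41 ± 0.15, 2.24 ± 0.18 and 2.01 ± 0.50 on the log2 scale. ID4, an inhibitory factor that BMP signalling can induce, was lower, at 4.57, 5.59 and 6.95 against 28.9, 29.6 and 31.0 scaled TPM. BMP8B and GDF15 were lower as well, with log2 differences of -2.73 ± 0.21 and -2.41 ± 0.25. Retinoic acid drives differentiation of neuroblastoma cells. Of 14 tested genes of 23 in its pathway 5 were higher and 5 lower (with library totals only, 4 higher and 6 lower). Without BE(2)C replicate 2 or SH-SY5Y replicate 1 there were 4 higher and 2 lower, without BE(2)C replicate 3 or SH-SY5Y replicate 2 4 higher and 3 lower, and without SH-SY5Y replicate 3 5 higher and 3 lower. The binding protein CRABP1 stood at 254, 305 and 299 scaled TPM in BE(2)C against 64.6, 63.4 and 59.5 in SH-SY5Y, and the retinol transporter STRA6 at 55.0, 67.2 and 63.5 against 14.2, 16.2 and 16.4. ALDH1A3, which makes retinoic acid, was lower, at 0.282, 1.20 and 0.823 against 13.1, 12.3 and 15.4, as was the receptor RARB, at 0.242 ± 0.161 against 1.27 ± 0.204.

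Adhesion molecules of the cadherin family leaned to BE(2)C. Protocadherins are surface proteins by which neurons tell their own branches from those of others. Many lie in 3 clusters on chromosome 5, of which PCDHA and PCDHG hold many alternative first exons. Of 89 cadherin and protocadherin genes 69 were tested, 37 higher and 6 lower (with library totals only, 28 higher and 10 lower). The PCDHA cluster had 8 higher and 0 lower of 14 tested and the PCDHG cluster 12 and 3 of 22. The PCDHB cluster had 4 and 2 of 15, a share of higher genes near the 28.6% of all tested genes. With library totals only it had 3 higher and 4 lower. The medians of the 3 clusters, in this order, were 1.03, 0.89 and 0.22 on the log2 scale. PCDHGB1 stood at 16.2, 16.5 and 17.3 scaled TPM in BE(2)C against 0.673, 0.0388 and 0.0723 in SH-SY5Y, PCDHB16 at 29.6, 28.8 and 32.3 against 2.79, 2.79 and 1.72, and PCDHB2 at 21.2, 22.7 and 23.1 against 1.44, 1.92 and 2.16. Each was higher in every BE(2)C library. Members of the PCDHA and PCDHG clusters share their last exons, so the split of reads among them is uncertain. The 15 PCDHB genes have a single exon each and do not share it.

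Protocadherin genes outside the clusters had 7 of 10 tested members higher and 0 lower. PCDH10 stood at 16.8, 15.6 and 17.5 scaled TPM in BE(2)C and a mean of 0.069 ± 0.0843 in SH-SY5Y, PCDH7 at 11.4, 12.7 and 14.7 against a mean of 0.0123 ± 0.0213, and PCDH9 at 81.4, 54.2 and 65.5 against 10.3, 9.29 and 10.97. The log2 differences were 4.05 ± 0.30, 3.78 ± 0.16 and 2.59 ± 0.26, and no library of a line reached the other. Genes of chromosome 5 outside the clusters also had a median of 0.35 (with 267 higher and 96 lower, and with library totals only 149 higher and 171 lower), so a clustered gene's difference stands beside that of its chromosome.

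**Figure D3:**
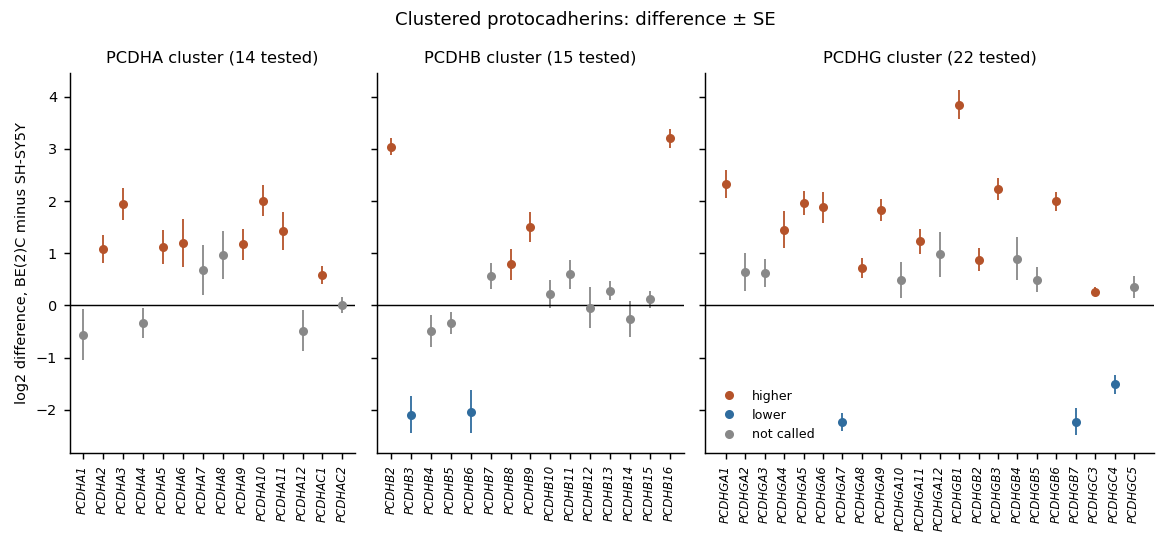
Log2 difference (BE(2)C minus SH-SY5Y) ± SE of each tested gene of the PCDHA, PCDHB and PCDHG clusters, coloured by call. Called genes lie above 0 in 8 of 14, 4 of 15 and 12 of 22 and below 0 in 0, 2 and 3; with library totals only the numbers are 5, 3 and 9 above and 1, 4 and 3 below.

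Matrix genes leaned to SH-SY5Y, with exceptions. Of 44 collagen genes 21 were tested, 4 higher and 10 lower (after quantile normalization, 6 higher and 7 lower). COL4A1 and COL4A2 encode the paired chains of basement membrane collagen. COL4A2 stood at 3.52, 2.67 and 2.24 scaled TPM in BE(2)C against 98.9, 92.5 and 86.4 in SH-SY5Y (log2 difference -4.63 ± 0.13, adjusted p = 1.4e-08, limma), and COL4A1 at 0.721 ± 0.312 against 24.2 ± 0.485. NID1, nidogen, which links basement membrane collagen to laminin, stood at a mean of 0.0522 ± 0.0552 scaled TPM in BE(2)C against 36.3, 39.5 and 38.8 in SH-SY5Y. PXDN, the peroxidasin that crosslinks that collagen, stood at 3.82, 6.94 and 7.58 against 259, 255 and 255. These 4 basement membrane genes were all lower, without overlap. COL6A6 and COL22A1 were higher, at 23.5 ± 4.70 and 15.6 ± 1.65 scaled TPM in BE(2)C against 0.772 ± 0.114 and 0.00857 ± 0.0148. Summed fibroblast markers overlapped between the lines. BGN, the proteoglycan biglycan, was higher, at 79.6, 92.8 and 94.5 scaled TPM in BE(2)C and a mean of 0.00895 ± 0.0155 in SH-SY5Y.

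Of 38 laminin and integrin genes 22 were tested, 7 higher and 11 lower (with library totals only, 5 higher and 13 lower; without any 1 SH-SY5Y library, 7 higher and 7 lower). LAMA4, a laminin chain of vessels and nerve, stood at 33.4, 36.1 and 26.6 scaled TPM in BE(2)C against 0.534, 0.97 and 1.21 in SH-SY5Y, and ITGB5, a vitronectin receptor subunit, at 102, 77.4 and 97.9 against 4.16, 4.41 and 4.03. ITGA11, a collagen receptor subunit, was higher by 3.46 ± 0.22 on the log2 scale, while LAMA5 and ITGA9 were lower (-1.19 ± 0.21 and -1.32 ± 0.14). Among 41 tested proteases and inhibitors of 86 in the table, 11 were higher and 17 lower (with library totals only, 7 higher and 20 lower). The secreted metalloprotease gene ADAMTS19 stood at 89.7, 83.1 and 94.0 scaled TPM in BE(2)C against 3.81, 4.09 and 3.47 in SH-SY5Y, and its relative ADAMTS3 at 33.8, 32.7 and 37.1 against 1.33, 1.08 and 1.61. TIMP1, the inhibitor of matrix metalloproteases, was higher by 2.32 ± 0.15 and PLAUR, the urokinase receptor, lower (-2.93 ± 0.44). Neither gene overlapped between lines.

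Calcium-binding proteins of the S100 and annexin families were described for 14 tested of 31 genes, 8 higher and 3 lower (after quantile normalization, 10 higher and 2 lower). S100A11 differed most, at 151, 159 and 128 scaled TPM in BE(2)C against 0, 0.308 and 0.316 in SH-SY5Y (log2 difference 6.93 ± 0.26). ANXA2, a membrane scaffold that works with S100A10, stood at 89.9, 62.6 and 51.6 scaled TPM in BE(2)C against 1.39, 0.252 and 0.639 in SH-SY5Y (log2 difference 5.31 ± 0.31, adjusted p = 8.6e-07, limma). S100A6 stood at 369.9, 354 and 305 against 64.2, 62.0 and 55.5. Annexins were not uniform: ANXA4 was lower, at 1.68 ± 0.993 scaled TPM against 10.6 ± 2.83, and ANXA11 at 13.9 ± 2.55 against 30.2 ± 2.88. The lines did not overlap in any gene of this paragraph that is given with its levels.

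Enzymes of ganglioside synthesis were listed together with surface molecules that are or have been targets of antibodies and cell therapies. Of these 27 genes 20 were tested, 10 higher and 4 lower (with library totals only, 9 higher and 7 lower). GPC2, a glypican of neuronal precursors, stood at 12.1, 23.9 and 17.4 scaled TPM in BE(2)C against 180.4, 184 and 165 in SH-SY5Y (log2 difference -3.28 ± 0.21, adjusted p = 1.4e-06, limma). L1CAM, a neural adhesion molecule, ran the other way, at 431, 383 and 426 against 193, 205 and 195. Disialoganglioside GD2 is made in steps by ST8SIA1, which forms GD3, and B4GALNT1, which turns GD3 into GD2. ST8SIA1 was higher, at 2.63, 6.44 and 2.67 scaled TPM against 0.205, 0.229 and 0.367, and B4GALNT1 did not pass, at 11.4 ± 2.41 against 20.99 ± 6.57 (mean ± SD, n = 3). CD276 (B7-H3) did not pass either (log2 difference -0.24 ± 0.14, adjusted p = 0.18, limma). CD47, the signal that limits phagocytosis, was higher by 1.19 ± 0.13, SSTR2, the somatostatin receptor used for imaging, by 1.34 ± 0.17, and CD24 was lower, with -1.08 ± 0.11.

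Growth factor receptor and ligand genes held members on both sides. Of 79 receptor kinase and ligand genes 46 were tested, 15 higher and 16 lower (after quantile normalization, 18 higher and 10 lower; without SH-SY5Y replicate 2 or 3, 13 higher and 10 lower). EGFR stood at 82.3, 65.6 and 70.2 scaled TPM in BE(2)C against 3.73, 3.07 and 3.77 in SH-SY5Y, and LTK, the kinase most like ALK, at 16.8, 22.8 and 24.1 against 0.48, 0.295 and 0.279. HGF, the ligand of MET, stood at 33.3, 31.3 and 45.8 against a mean of 0.0225 ± 0.039. Each was higher in all BE(2)C libraries, by 4.02 ± 0.13, 4.03 ± 0.30 and 5.19 ± 0.22 on the log2 scale. GDNF, a survival factor of sympathetic precursors, stood at 7.90, 18.3 and 18.2 scaled TPM with a mean of 0.0169 ± 0.0293 in SH-SY5Y, and GFRA2, a coreceptor of its family, at 33.9, 28.2 and 20.2 against 1.26, 1.85 and 0.557. PDGFRA, a receptor of mesenchymal cells, was lower, at 0.243, 0.616 and 0.243 scaled TPM in BE(2)C against 20.3, 22.1 and 20.01 in SH-SY5Y (log2 difference -4.005 ± 0.19, adjusted p = 2.4e-07, limma).

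The insulin-like growth factor axis was described for 15 tested of 21 genes, 6 higher and 6 lower (with library totals only, 4 higher and 7 lower). The ligand gene IGF2 stood at 1233, 1703 and 1906 scaled TPM in BE(2)C against 2.41, 2.46 and 1.79 in SH-SY5Y, and its receptor and binding proteins were not uniform. IGF1R, the receptor, stood at 66.5, 58.5 and 69.5 scaled TPM in BE(2)C against 23.6, 26.8 and 24.5 in SH-SY5Y, and INSR, the insulin receptor, at 14.8, 15.7 and 16.9 against 29.5, 33.7 and 27.03, so the former was higher and the latter lower. The adaptor IRS2 was lower, at 22.5, 24.7 and 30.9 against 125, 131 and 122.9, and IRS1 did not pass (0.28 ± 0.14 on the log2 scale). Binding proteins hold the ligands in the medium. IGFBP7 stood at 74.4, 59.5 and 53.8 scaled TPM in BE(2)C against 7.34, 0.162 and 0.15 in SH-SY5Y, IGFBP4 at 354 ± 44.9 against 122 ± 2.19, and both were higher. IGFBP5 stood at 45.7, 40.4 and 42.8 against 233.7, 240.1 and 239.6, and IGFBP3 and IGFBP6 were lower as well (-2.19 ± 0.31 and -1.81 ± 0.39). IGF2R, which removes the ligand, did not pass (log2 difference -0.29 ± 0.16, adjusted p = 0.16, limma).

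The feedback inhibitors of the MAP kinase cascade that are named here were lower, while their list had members on both sides. Of 34 feedback and immediate early genes 27 were tested, 12 higher and 8 lower (with library totals only, 5 higher and 11 lower). DUSP6, the phosphatase that ERK induces and that switches ERK off, stood at 1.35, 2.98 and 2.10 scaled TPM in BE(2)C against 104, 89.9 and 92.5 in SH-SY5Y (log2 difference -4.97 ± 0.23, adjusted p = 2.1e-07, limma). SPRY1, a Sprouty inhibitor, stood at a mean of 0.146 ± 0.0622 against 12.9 ± 1.22, and SPRED3 at 1.14 ± 0.124 against 12.1 ± 1.13. RASA4 lies outside this list and encodes a GTPase-activating protein of RAS, and a near-identical copy makes its level uncertain. It stood at 1.04, 1.22 and 2.09 scaled TPM in BE(2)C against 69.8, 102 and 116 in SH-SY5Y. The lines did not overlap in any of these. PHLDA1 and FOSL2, which growth factors induce, were higher, PHLDA1 at 28.5, 51.1 and 57.4 against 0.618, 1.03 and 0.86 scaled TPM and FOSL2 by 1.63 ± 0.20 on the log2 scale. In Kelly DUSP6 stood at 8.05, 11.1 and 13.9 scaled TPM.

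Prostaglandin E2 receptors were higher as far as they passed the filter. Of 21 prostaglandin genes 10 were tested, 5 higher and 2 lower (with library totals only, 4 higher and 4 lower). PTGER3 stood at 6.74, 7.72 and 7.43 scaled TPM in BE(2)C against 0.947, 0.521 and 0.564 in SH-SY5Y, and PTGER1 at 11.2, 13.3 and 9.44 against 1.75, 1.99 and 1.71. PTGER2 stood at 128, 125 and 151 against 0.105, 0.424 and 0.393 (log2 difference 6.70 ± 0.32). PTGR1, which inactivates prostaglandins, was lower, at 0.176 ± 0.112 scaled TPM against 6.94 ± 2.79, and the synthases PTGIS and PTGES read 0.447 ± 0.249 and 2.42 ± 1.33 against 4.37 ± 0.383 and 4.78 ± 0.975, of which PTGIS was called.

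Mitochondrial energy genes leaned to BE(2)C across nearly every complex. The respiratory chain passes electrons through complexes I to IV and ATP synthase uses the gradient they build. Of 92 nuclear genes 88 were tested, 57 higher and 5 lower, and with library totals only 40 higher and 11 lower (without SH-SY5Y replicate 1 or 3, 55 higher and 3 lower). Complex I had 25 of 38 higher and 1 lower, complex II 3 of 4 and 0, complex III with cytochrome c 9 of 14 and 2, complex IV 7 of 14 and 2, and ATP synthase 13 of 18 and 0. The medians on the log2 scale were 0.80, 0.97, 0.61, 0.55 and 0.86. Complex IV is the exception under library totals only, with 4 higher and 5 lower. NDUFS6, an iron-sulphur protein of complex I, stood at 580.2, 545 and 504 scaled TPM in BE(2)C against 171, 163 and 143 in SH-SY5Y (log2 difference 1.77 ± 0.08, adjusted p = 1.5e-07, limma). COX5A of complex IV stood at 1002, 1026 and 935 against 352, 300.2 and 321, and ATP5D of ATP synthase at 197, 189 and 189.9 against 65.8, 70.3 and 48.8. None of the 3 overlapped between lines.

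The 13 protein genes of mitochondrial DNA were all higher, with log2 differences from 1.06 to 1.41 and a median of 1.22. MT-CO3, a core subunit of complex IV, stood at 40479, 68312 and 52754 scaled TPM in BE(2)C against 19919, 18923 and 20428 in SH-SY5Y, and MT-ND1 of complex I at 14978, 28767 and 24495 against 8972, 8909 and 9706. The second BE(2)C library was highest and the first lowest in both, in the order of the mitochondrial share of each library, 35.4% and 24.5%. After quantile normalization 3 higher and 1 lower were left among the 13. The mitochondrial share of the gene total moved with this result, and its part was not tested.

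**Figure D4:**
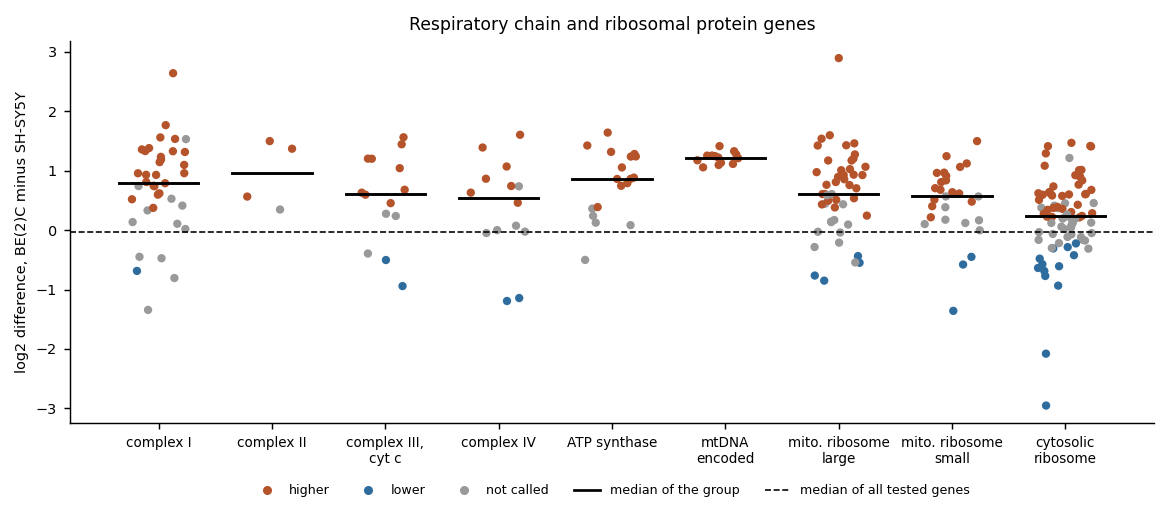
Log2 difference (BE(2)C minus SH-SY5Y) of each tested respiratory chain and ribosomal protein gene, grouped by complex, with a bar at the group median and a dashed line at the median of all tested genes. Group medians run from 0.55 for complex IV to 1.22 for the mitochondrially encoded genes and stand lower for cytosolic ribosomal proteins, at 0.23, whose calls turn to 10 higher and 35 lower with library totals only.

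Ribosomal proteins of the mitochondrion were mostly higher and those of the cytosol less so. Of 77 mitochondrial ribosomal protein genes 76 were tested, 48 higher and 7 lower (with library totals only, 29 higher and 10 lower). MRPL48 stood at 23.1, 32.7 and 20.9 scaled TPM in BE(2)C against 4.62, 1.73 and 1.82 in SH-SY5Y, MRPL13 at 99.2, 107 and 92.2 against 28.8, 29.8 and 38.6, and MRPS30 at 127, 119 and 116 against 45.2, 42.2 and 39.1. All 3 differed without overlap, by 2.90 ± 0.40, 1.597 ± 0.14 and 1.498 ± 0.07 on the log2 scale. Cytosolic ribosomal proteins had 36 higher and 13 lower of 81 tested, a balance that turned with library totals only, 10 higher and 35 lower. These genes have many processed copies in the genome, so the level of a single one is uncertain. RPL9 stood at 566 ± 60.1 scaled TPM against 212 ± 19.4 and RPL8 at 53.4 ± 62.7 against 270.4 ± 49.7, the first higher and the second lower.

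Aminoacyl-tRNA synthetases load amino acids onto transfer RNA. Of 37 genes 36 were tested, 19 higher and 8 lower, and with library totals only 10 higher and 13 lower. The largest differences upwards included SARS for serine, at 537, 604 and 523 scaled TPM in BE(2)C against 159, 155 and 151 in SH-SY5Y. FARSB for phenylalanine stood at 153, 160.1 and 149 against 34.9, 36.3 and 39.6, and AARS for alanine at 303, 336 and 317 against 118, 118 and 112. IARS for isoleucine was higher by 1.31 ± 0.05 on the log2 scale and the mitochondrial methionine enzyme MARS2 by 2.22 ± 0.11. The lines did not overlap in any of these 5.

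Protein turnover and folding genes followed. No proteasome subunit was lower: 20 of 34 tested were higher and 14 not called, but with library totals only there were 10 higher and 8 lower and on the values as deposited 4 higher and 8 lower. Without SH-SY5Y replicate 3 there were 19 higher and 1 lower, and after quantile normalization 16 higher and 4 lower. PSMA3, a ring subunit of the core, stood at 164, 142 and 165 scaled TPM in BE(2)C against 54.2, 43.8 and 60.4 in SH-SY5Y, and PSMB3 at 561.5, 544 and 467 against 235, 247 and 218. Of 32 tested heat shock and chaperonin genes of 37 in the table, 18 were higher and 4 lower (with library totals only, 7 higher and 7 lower). The mitochondrial chaperone HSPE1 stood at 1385, 1166 and 1102 scaled TPM in BE(2)C against 379, 303 and 334 in SH-SY5Y, and HSPA9 at 782, 766 and 715 against 233, 228 and 244, both higher in every library. HSPA12A, a distant member found in brain, was lower, at 0.292 ± 0.283 against 38.1 ± 4.76, as was HSPB11, of the ciliary transport machinery, with -1.45 ± 0.36 on the log2 scale.

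The unfolded protein response and the amino acid response answer stress in the endoplasmic reticulum and shortage of amino acids, the first partly through XBP1 and ATF6, the second through ATF4. All 30 genes of this list were tested, 15 were higher and 3 lower (with library totals only, 11 higher and 7 lower). ER stress response elements consist of CCAAT and CCACG with 9 bases of any kind between them. On either strand they occurred in the 250 bases before the start of 3 of 29 members with a promoter in the RefSeq table (10.3%: CRELD2, HSPA5 and XBP1), of 0.0806% of all promoters and of 0.121% of those of tested genes. The stretches before the start of HSPA5 (chr9:125241344-125241593, minus strand) and XBP1 (chr22:28800570-28800819, minus strand) are shown because the motif, in capitals, marks members that were both higher; they are read 5′ to 3′ on the gene's strand from RefSeq, GRCh38.p14.
HSPA5: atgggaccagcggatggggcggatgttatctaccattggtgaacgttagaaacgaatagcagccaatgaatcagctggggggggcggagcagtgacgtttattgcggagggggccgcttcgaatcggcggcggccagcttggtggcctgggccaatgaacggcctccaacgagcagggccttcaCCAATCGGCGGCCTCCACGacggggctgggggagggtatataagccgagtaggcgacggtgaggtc
XBP1: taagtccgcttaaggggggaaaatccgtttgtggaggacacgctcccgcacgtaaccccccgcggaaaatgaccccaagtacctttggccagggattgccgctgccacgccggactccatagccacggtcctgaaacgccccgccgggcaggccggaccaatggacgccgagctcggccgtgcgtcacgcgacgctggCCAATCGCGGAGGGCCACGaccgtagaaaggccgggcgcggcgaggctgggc

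HSPA5 (BiP), the main chaperone of the endoplasmic reticulum, stood at 699, 861 and 825 scaled TPM in BE(2)C against 202, 195 and 206 in SH-SY5Y (log2 difference 1.98 ± 0.09, adjusted p = 1.7e-07, limma). XBP1 stood at 125, 152 and 139 against 45.1, 50.3 and 45.3, and the cochaperones SDF2L1 and DNAJC3 were higher by 1.88 ± 0.09 and 1.58 ± 0.11 on the log2 scale. CRELD2, whose promoter holds the same motif, did not pass, with 13.2, 34.7 and 35.4 scaled TPM in BE(2)C against 14.6, 12.4 and 18.4 in SH-SY5Y (adjusted p = 0.12, limma). ERN1, the sensor that splices XBP1, was lower, at 3.71, 1.44 and 2.55 against 11.4, 9.62 and 10.4. On the amino acid side, ATF4 itself stood at 989, 996 and 978 scaled TPM in BE(2)C against 303, 287 and 297 in SH-SY5Y. CEBPB, its partner, stood at 87.0, 97.9 and 97.6 against 15.2, 15.4 and 11.9, ATF3 at 13.6, 12.6 and 16.1 against 2.41, 2.29 and 2.82, and STC2 was higher by 2.19 ± 0.28 on the log2 scale. Other known ATF4 targets did not share this: ASNS did not pass (-0.55 ± 0.27, adjusted p = 0.11, limma), nor did CHAC1 (0.93 ± 0.36, adjusted p = 0.051), and TRIB3 was lower (-0.77 ± 0.19).

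Amino acid supply differed at the transporters. Of 38 transporters and glutamine enzymes 32 were tested, 16 higher and 7 lower (with library totals only, 11 higher and 11 lower). SLC7A5 and SLC3A2 form the large neutral amino acid exchanger LAT1. SLC7A5 stood at 370.4, 409 and 413 scaled TPM in BE(2)C against 69.9, 70.9 and 64.7 in SH-SY5Y, SLC3A2 at 72.5, 79.9 and 85.2 against 12.99, 22.2 and 22.7, and the glutamine importer SLC1A5 at 367, 388 and 361 against 129.5, 136 and 125. All 3 were higher in every library, by 2.52 ± 0.07, 2.02 ± 0.19 and 1.51 ± 0.06 on the log2 scale. SLC1A4, which carries alanine and serine, was lower, at 4.53, 3.06 and 5.17 against 18.7, 18.9 and 18.01 scaled TPM.

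Serine and folate enzymes supply carbon units for nucleotides and methylation. Of 30 genes 27 were tested, 16 higher and 4 lower (with library totals only, 8 higher and 8 lower). PHGDH and PSAT1 open the path from glycolysis to serine. PHGDH stood at 677, 663 and 601 scaled TPM in BE(2)C against 210.2, 209 and 204 in SH-SY5Y, and PSAT1 at 254, 275 and 260.2 against 97.5, 88.4 and 94.4, but PSPH, the last step, did not pass (-0.33 ± 0.40 on the log2 scale). MTHFD1, the cytosolic folate enzyme, stood at 284, 317 and 284 scaled TPM against 89.5, 76.4 and 94.7, and ALDH1L2, a mitochondrial enzyme that consumes formyl-folate, at 19.5 ± 1.41 against 3.32 ± 1.05. GLDC breaks glycine down and stood at 0.242, 0.348 and 0.254 scaled TPM in BE(2)C against 32.4, 33.5 and 32.7 in SH-SY5Y (log2 difference -4.73 ± 0.14, adjusted p = 1.9e-08, limma). TYMS, thymidylate synthase, was lower too, at 267 ± 36.02 against 379.5 ± 6.71.

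Arginine and polyamine genes held the largest difference of all genes, ASS1, and others of the same route. Of 39 genes 33 were tested, 16 higher and 8 lower (with library totals only, 6 higher and 9 lower). ASS1 and the arginine importer SLC7A2 are different ways to obtain arginine. SLC7A2 stood at 209, 155 and 156 scaled TPM in BE(2)C against 3.54, 3.57 and 3.35 in SH-SY5Y, and ASS1 at 780.5, 659 and 580.0 with a mean of 0.00795 ± 0.0138. ARG2, the mitochondrial arginase that spends arginine, was lower, at 3.57, 7.24 and 3.05 against 22.9, 39.7 and 32.5 (log2 difference -2.58 ± 0.29, adjusted p = 5.5e-05, limma). ODC1, the first enzyme of polyamine synthesis and a known MYCN target, stood at 868, 824 and 728 scaled TPM against 386, 362 and 377. The mitochondrial creatine kinases CKMT1A and CKMT1B are near-identical copies, and their values, 39.5 ± 5.48 and 34.7 ± 11.2 in BE(2)C against 17.3 ± 4.01 and 15.7 ± 3.15, are uncertain one by one.

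Lipid synthesis genes leaned to BE(2)C. Of 48 genes 45 were tested, 24 higher and 7 lower (with library totals only, 19 higher and 10 lower), and of 20 enzymes of the mevalonate and cholesterol path 11 were higher and 2 lower. SREBF2, the transcription factor of that path, stood at 231, 266 and 268 scaled TPM in BE(2)C against 80.3, 80.4 and 71.5 in SH-SY5Y. SQLE, squalene epoxidase, stood at 213, 296 and 277 against 81.5, 73.6 and 78.8, MVD, of the mevalonate steps, at 36.1, 59.97 and 55.0 against 8.73, 11.9 and 15.9, and the sterol carrier STARD4 at 121, 178 and 204 against 18.3, 20.02 and 21.4. All 4 were higher without overlap. ELOVL2, which lengthens polyunsaturated fatty acids, was lower, at 0.798, 0.852 and 1.12 scaled TPM in BE(2)C against 28.5, 29.1 and 31.5 in SH-SY5Y (log2 difference -3.999 ± 0.13, adjusted p = 3.3e-08, limma). ACACB, an acetyl-CoA carboxylase, was lower too, at 1.86 ± 0.685 against 11.3 ± 0.266.

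Glycolysis and hypoxia genes had 16 higher and 13 lower of 39 tested, 41% and 33.3% (with library totals only, 5 higher and 20 lower). PDK1, a pyruvate dehydrogenase kinase, stood at 0.931, 1.78 and 1.99 scaled TPM in BE(2)C against 31.9, 27.4 and 34.7 in SH-SY5Y (log2 difference -3.67 ± 0.27, adjusted p = 3.7e-06, limma). PFKP, an isoform of phosphofructokinase, stood at 63.9, 95.2 and 108 against 274, 278 and 264, and PFKL, another, at 13.1, 14.98 and 15.4 against 44.7, 45.1 and 33.3. SLC16A1, the lactate transporter MCT1, was higher, at 177 ± 4.99 against 53.8 ± 0.342 scaled TPM. Redox enzymes had 30 higher and 14 lower of 74 tested (with library totals only, 10 higher and 22 lower). PRDX4, the peroxiredoxin of the endoplasmic reticulum, stood at 637, 735 and 628 scaled TPM in BE(2)C against 114, 114 and 117 in SH-SY5Y, and AKR1C3, a ketosteroid reductase, at 53.04, 24.9 and 22.4 against 1.58, 2.29 and 1.56. NFE2L3, a relative of NRF2, was lower by the log2 difference -3.10 ± 0.18. The lines did not overlap in any gene of this paragraph that is named with its libraries.

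Lysosomal genes were 15 higher and 11 lower of 41 tested (with library totals only, 10 higher and 16 lower). Without SH-SY5Y replicate 1 there were 13 higher and 7 lower, and without replicate 3 13 higher and 6 lower. Several members read under 1 scaled TPM in BE(2)C. NPC2, which carries cholesterol out of lysosomes, stood at 0.00211, 9.01e-05 and 0.855 scaled TPM in BE(2)C against 19.2, 21.3 and 12.8 in SH-SY5Y, and FUCA1, a fucosidase, at 0.445, 0.895 and 0.468 against 12.5, 17.4 and 18.96. IDUA, which degrades glycosaminoglycans, differed by -3.80 ± 0.24 on the log2 scale. CTSC, cathepsin C, was higher, at 109.9, 117 and 118 against 21.4, 20.5 and 23.0 scaled TPM. ABC transporters had 12 higher and 6 lower of 28 tested of 48 in the table (with library totals only, 6 higher and 9 lower). ABCD2 of peroxisomes and ABCE1, which recycles ribosomes, were higher by 2.04 ± 0.18 and 1.45 ± 0.11 on the log2 scale.

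Cell death genes differed at single points. Of 17 tested BCL2 family genes of 20, 3 were higher and 6 lower, and 8 were not called. Without SH-SY5Y replicate 1 or 2 there were 2 higher and 3 lower, with library totals only 3 higher and 9 lower and after quantile normalization 4 higher and 5 lower. BAK1, a pore-forming killer protein, stood at 46.4, 40.2 and 43.6 scaled TPM in BE(2)C against 14.002, 15.7 and 14.9 in SH-SY5Y, and BAX, its counterpart, did not pass, at 54.6, 36.1 and 43.9 against 54.1, 37.7 and 34.8. The survival genes BCL2 and BCL2L1 were lower, by log2 differences of -0.91 ± 0.21 and -0.65 ± 0.08, while MCL1 did not pass (0.03 ± 0.08). BMF, a pro-death member, stood at 3.45, 2.12 and 1.74 against 18.5, 15.3 and 17.97. Of 25 tested death receptor and caspase genes 8 were higher and 8 lower (with library totals only, 4 higher and 12 lower; without SH-SY5Y replicate 1, 5 higher and 5 lower, and without replicate 2, 6 higher and 5 lower). TNFRSF10B, the TRAIL receptor DR5, stood at 2.99, 4.55 and 3.06 scaled TPM in BE(2)C against 85.4, 93.6 and 84.6 in SH-SY5Y (log2 difference -4.31 ± 0.15, adjusted p = 5.3e-08, limma). CASP6, an executioner caspase, was at 0.65 ± 0.601 against 13.5 ± 0.939, and the death receptor TNFRSF21 was higher by 2.44 ± 0.09.

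Interferon and nucleic acid sensing genes were near the background in both directions, 13 higher and 13 lower of 42 tested, and with library totals only 8 higher and 20 lower (after quantile normalization, 17 higher and 8 lower). UBE2L6, the conjugating enzyme of ISG15, stood at 1.31, 2.36 and 1.74 scaled TPM in BE(2)C against 97.0, 99.2 and 90.3 in SH-SY5Y, and JAK1, the kinase of interferon receptors, at 22.7, 18.4 and 16.8 against 106, 108 and 112. OAS3, a sensor of double-stranded RNA, was higher, at 77.6, 51.5 and 55.7 against 20.9, 8.36 and 15.2, as was SAMHD1, which degrades nucleotides, with 1.64 ± 0.14 on the log2 scale. Cytokine and chemokine genes passed the filter in 33 of 149 cases, 11 higher and 9 lower (with library totals only, 8 higher and 13 lower; without BE(2)C replicate 2, 7 higher and 9 lower). The summed leukocyte markers given above did not overlap between lines, and their part in these values was not tested. CXCR4, the receptor of the homing chemokine CXCL12, stood at 7.05, 8.56 and 7.59 scaled TPM in BE(2)C against 262, 260.2 and 257 in SH-SY5Y (log2 difference -4.90 ± 0.19, adjusted p = 6.9e-08, limma). CXCL12 was the reverse, at 14.6, 9.56 and 11.2 against 0, 0.43 and 0. IL13RA2, a decoy receptor, was listed at 0 in SH-SY5Y and in Kelly and stood at 53.4, 79.4 and 78.2 scaled TPM in BE(2)C. LIFR, the receptor of leukaemia inhibitory factor, was higher, at 92.3, 75.1 and 78.6 against 6.99, 5.70 and 6.27.

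Cancer-testis antigens are genes of the germ line that tumours can switch on, mostly on the X chromosome. Of 93 in the table, 64 were at 0 in both lines, 19 were tested, none was higher and 11 were lower. Their summed level was 4.05 to 7.81 scaled TPM in BE(2)C and 286 to 303 in SH-SY5Y. MAGEA3 stood at 59.5, 51.6 and 52.1 scaled TPM in SH-SY5Y, MAGEA6 at 55.8, 40.2 and 57.4 and MAGEA12 at 37.8, 55.5 and 46.8, and each was listed at 0 in all 3 BE(2)C libraries. XAGE1A and XAGE1B had the same pattern. Both groups are near-identical copies and the split among them is uncertain. PRAME, on chromosome 22, stood at 1.34, 1.43 and 1.06 scaled TPM in BE(2)C against 32.6, 26.2 and 26.2 in SH-SY5Y. In Kelly MAGEA3 read 5.62, 8.82 and 3.99 and PRAME 31.9, 18.9 and 37.4.

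Imprinted genes are expressed from the copy of a single parent, and 19 of 23 in the table were tested, 3 higher and 11 lower. Neighbours did not always share a direction. On chromosome 11, IGF2 was higher and CDKN1C, a growth inhibitor of the same imprinted region, lower, at 0.486, 0.437 and 0.171 scaled TPM in BE(2)C against 28.3, 23.7 and 25.7 in SH-SY5Y. On chromosome 14, DLK1 stood at 2080, 3455 and 3356 scaled TPM against 104, 86.7 and 88.3 and its neighbour RTL1 at 7.34, 16.9 and 20.2 against 94.6, 93.7 and 96.6, again opposite. On chromosome 7 several genes of an imprinted region were lower, in a 10-Mb stretch (90 to 100 Mb) where 32 of 59 tested genes were lower and 3 higher, with a median log2 difference of -0.68. TFPI2 (chr7:93885396-93890991), an inhibitor of serine proteases, read 0.0357 ± 0.0619 scaled TPM on average in BE(2)C and 247, 237 and 243 in SH-SY5Y. PEG10 (chr7:94656325-94669695), a retrotransposon-derived gene, stood at 99.4, 103 and 109 against 465, 479 and 502, PPP1R9A at 0.499 ± 0.334 against 13.1 ± 0.299 and DLX5 at 4.47 ± 0.325 against 23.5 ± 1.71. GNG11 (chr7:93921699-93928610), a G protein subunit next to TFPI2 and not in the list, was lower as well, at 2.39, 2.14 and 1.78 against 160.1, 159.7 and 170.0. SGCE (chr7:94524204-94656572), which starts beside PEG10, did not pass (0.31 ± 0.14 on the log2 scale, adjusted p = 0.087, limma). Coordinates are those of GENCODE release 29 on GRCh38. Strand use in counting is not stated, so PEG10 and SGCE, which overlap, may share reads. PEG3 on chromosome 19 was lower too, at 0.0966 ± 0.0474 scaled TPM against 18.8 ± 1.73.

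Chromatin genes differed less. Polycomb genes had 8 higher and 10 lower of 35 tested (with library totals only, 3 higher and 17 lower, on the values as deposited 3 higher and 19 lower and after quantile normalization 8 higher and 8 lower). Without BE(2)C replicate 1 or SH-SY5Y replicate 3 there were 7 higher and 6 lower. CBX6, a reader of the polycomb mark, stood at 139, 152 and 156 scaled TPM in BE(2)C against 25.8, 26.7 and 26.7 in SH-SY5Y (log2 difference 2.45 ± 0.07, adjusted p = 2e-08, limma). PHF19, which recruits the complex, stood at 142, 149 and 162 against 57.1, 68.6 and 64.5. PHC1 and RBBP4 were lower, with log2 differences of -1.24 ± 0.14 and -1.22 ± 0.11. DNA methylation genes had 8 higher and 4 lower of 23 tested (with library totals only, 7 higher and 7 lower). DNMT1, the maintenance enzyme, did not pass (76.9 ± 17.9 scaled TPM against 75.2 ± 14.4), and DNMT3A, which sets new marks, was lower, at 49.5, 47.1 and 52.5 against 83.6, 95.4 and 96.4. GADD45G, a stress gene linked to demethylation, was higher, at 28.7, 54.5 and 66.2 against 4.96, 3.62 and 4.10, and APOBEC3C, a cytidine deaminase, at 35.1 ± 1.55 against 2.98 ± 0.357.

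Telomere genes were called least often of all lists, 5 higher and 3 lower of 22 (with library totals only, 1 higher and 7 lower). Without BE(2)C replicate 2 or SH-SY5Y replicate 2 there were 3 higher and 1 lower, and without replicate 3 of either line 5 higher and 1 lower. TERT, the catalytic subunit of telomerase, was among those lower, at 4.01, 4.53 and 4.77 scaled TPM in BE(2)C against 17.8, 19.2 and 14.996 in SH-SY5Y (log2 difference -1.75 ± 0.17, adjusted p = 2.5e-05, limma), and at 14.5, 21.3 and 18.2 in Kelly. ATRX, whose loss goes with telomerase-free lengthening, did not pass, at 46.9 ± 4.46 against 64.8 ± 15.4 scaled TPM.

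Zinc finger genes named ZNF form the largest list, with 475 tested of 509, 44 higher and 182 lower (with library totals only, 17 higher and 284 lower, and after quantile normalization 67 higher and 141 lower). Many are repressors with KRAB domains, and many lie in clusters on chromosome 19. There were 17 higher and 73 lower of 237 on chromosome 19 and 27 and 109 of 238 on the others, with medians of -0.36 and -0.38 on the log2 scale, and a difference between them was not tested. Other genes of chromosome 19 had a median of -0.08. ZNF595 stood at 16.5, 15.3 and 12.1 scaled TPM in BE(2)C against 304, 307 and 306 in SH-SY5Y, and ZNF853 at 3.07, 3.19 and 1.82 against 88.0, 89.2 and 77.7. ZNF521, a regulator of neural progenitors, was lower by the log2 difference -3.28 ± 0.26.

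Calls were spread unevenly over the chromosomes. On chromosome 18, 110 of 187 tested genes were lower and 13 higher (58.8% and 6.95%, against 30.7% and 28.6% of all genes). Chromosomes 7, 1 and 17 followed, with 48.5%, 44.2% and 40.7% lower. On the other side, 47.8% of tested genes on chromosome 13 were higher, 46.6% on chromosome 5, 42.5% on chromosome 12, 41.1% on 21, 40.5% on 8 and 40.3% on 22. Median log2 differences were -0.63 on 18, -0.44 on 7, -0.33 on 1 and -0.32 on 17, and 0.4 on 13, 0.39 on 5, 0.31 on 22, 0.3 on 12, 0.28 on 8 and 0.21 on 21. Relative to all genes, each kept its side under each alternative setting.

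Stretches of 10 Mb that held 20 or more tested genes (windows) showed whether a chromosome moved as a whole. Their medians are set against 0 and were taken with the trimmed-mean scaling alone. The all-gene median was -0.038 there and -0.44 with library totals only. All 13 windows of chromosome 7 and all 6 of chromosome 18 had a median under 0, and all 13 of chromosome 5, 13 of chromosome 12, 6 of chromosome 13 and 5 of chromosome 22 a median above 0. Chromosome 1 had 20 of 22 windows under 0. Others changed side along their length. On chromosome 3 the lowest window median was -0.88 and the highest 0.82, and on chromosome 11 they were -0.67 and 0.81. Chromosome 8 had 10 windows above 0 and 1 below, at -0.75. Named genes can run against their chromosome: ADCYAP1 lies on 18 and RELN on 7, and both were higher in BE(2)C.

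**Figure D5:**
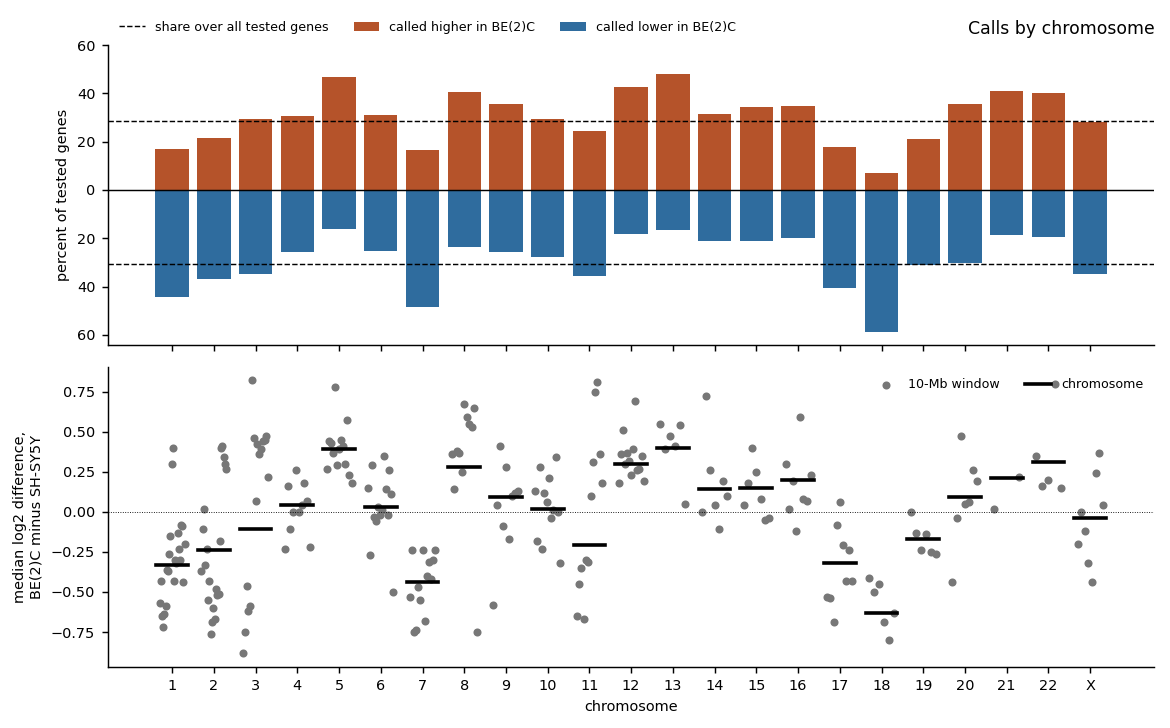
Top, percent of tested genes called higher (up) and lower (down) in BE(2)C on each chromosome, with dashed lines at the shares over all tested genes. Bottom, median log2 difference of each chromosome (bar) and of its 10-Mb windows (points); chromosomes 7 and 18 lie below 0 in every window and 5, 12, 13 and 22 above it.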

How the data were processed

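Polyadenylated RNA of 3 BE(2)C and 3 SH-SY5Y libraries was compared; 3 Kelly libraries entered the fit. The authors deposited values that fit log10(TPM + 1), with spike-ins counted in the total of each library. HISAT 0.1.6, Salmon 0.3.2 and GRCh38 stand in the submitters' processing notes without a stated role, and how transcripts became genes is not stated. Of 19837 entries, 92 spike-ins, 11 reporter or selection markers and 28 date-like names were dropped, and the number of unused value columns is 0. The 19706 genes were rescaled to 1000000 and divided by a trimmed-mean factor (from each end, 30% of log ratios and 5% of log levels were left out), which gives scaled TPM. limma 3.58.1 in R 4.3.3, with its trend option, was fitted to log2(scaled TPM + 1) of genes at 1 or more in at least 3 of 9 libraries. The pseudocount of 1 makes differences of low genes look smaller than they are. The script was tested on simulated data. GENCODE 29 gave positions for 18678 genes by symbol and 526 by another symbol; 502 did not match. Promoters came from RefSeq (GRCh38.p14), searched over 250 bases before the start.

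The comparison, the 51 lists and the members described were chosen with earlier results of these data known. Genes named were drawn from, over all genes, the 30 called in each direction with the largest difference and a mean of at least 10 scaled TPM in the higher line, by the same rule up to 6 per list, and any member of lists of 30 or fewer where its role needed it; X-inactivation and Y-linked genes were left out. Not every gene that this rule admits is described, and some members are not reported here. Alternatives were other pseudocounts (0.1 and 5), filters, scalings, the 6 libraries alone, a replicate block and leaving out each library.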

Additional observations from a re-analysis of the deposited data

How the results depend on the processing

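The number of genes called stayed within 1.5 times 7763 in each alternative tried. The number called higher did not stay so under 2 scalings, in which the all-gene median was -0.44 and -0.443. The cause was not tested. Taking mitochondrial genes out of the total moved the balance less far, to 2875 higher and 5046 lower, with a median of -0.229. With library totals only, 1891 genes were higher and 6131 lower, and on the values as deposited, where 10279 genes passed the filter, 1249 were higher. Leaving out 1 library gave 6721 to 7319 calls, 3357 to 3465 higher and 3324 to 3854 lower. Deviations from the line means of same-numbered libraries correlated by -0.054 to 0.026, against -0.038 to 0.041 for other numbers. Deviations within a line cancel each other, which ties these correlations together. They cannot show whether replicate numbers pair the libraries, and no pairing is stated. With a replicate block 7545 genes were called, 3646 higher and 3899 lower. Relative to the median of all tested genes, the median of the retinoic acid pathway moved from -0.16 to 0.30 with the filter at 5 and to 0.22 on the values as deposited, and that of growth factor receptor kinases from -0.24 to 0.15 on the latter; the cause was not tested. Medians of other lists also changed sign under some settings, SOX factors among them, as did several within 0.1 of 0. No gene named with a call reversed. Near 1 scaled TPM, unknown depth limits what a difference can show.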

Other observations

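Genes listed at 0 in all libraries of 1 line and at 10 or more scaled TPM in each library of the other numbered 22 for BE(2)C at 0 and 17 for SH-SY5Y at 0. Among the former were VAT1L (35.2, 36.6 and 33.03 scaled TPM in SH-SY5Y), EFS, an adaptor of SRC kinases (97.5, 106 and 93.0), and GNG8, a G protein subunit (45.01, 51.5 and 50.3). Among the latter was PRUNE2 (40.5, 31.0 and 38.6 scaled TPM in BE(2)C). The table gives no counts, so a 0 sets no upper limit.

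Of the entries for reporters and selection markers, the one for ampicillin resistance stood at 146.9 to 198.6 deposited TPM in all 9 libraries, 147.9 to 175.1 in BE(2)C and 185.4 to 198.6 in SH-SY5Y. The 4 fluorescent reporters were at 0 in all 9.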
